A study of Mus musculus with 2 samples.

Results

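The 4 Camk2 genes encode the alpha (Camk2a), beta (Camk2b), delta (Camk2d) and gamma (Camk2g) subunits of Ca2+/calmodulin-dependent protein kinase II (CaMKII). They were taken by name from the count table, as 4 of its 35163 genes, and were followed across single myofibers from the FDB (flexor digitorum brevis), a toe-flexing muscle of the sole. The muscle came from 1 untreated C57BL/6J mouse over 3 months old, with no genetic change given in the labels, so all cells below belong to 1 biological sample. Myofibers were released with collagenase and sorted singly as whole myofibers, or cut with scissors into fragments. The cells carry 8 library indexes, 705 to 712, and each index was sequenced on 1 of 2 lanes. Each index was read as 1 plate. Of 763 cells, the 171 with more than 5000 genes detected and under 20% mitochondrial counts were kept, and 592 failed these filters.

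CaMKII is a large holoenzyme in which subunits of 1 or several of these genes are mixed. When Ca2+ rises, as it does in a myofiber at each contraction, Ca2+-loaded calmodulin releases the kinase domain, and neighboring subunits then phosphorylate each other at a threonine of the regulatory segment, which keeps the enzyme active after Ca2+ has fallen. In skeletal muscle the kinase is known for its action on Ca2+ release and reuptake by the sarcoplasmic reticulum and on factors that repress or activate muscle transcription. The beta subunit is known for binding actin filaments, the delta subunit is the main one of the heart, the gamma subunit is made in many tissues, and the alpha subunit is best known from forebrain neurons. The Camk2a gene also has an internal promoter that gives alphaKAP, an anchoring protein without a kinase domain that brings CaMKII to the membranes of the sarcoplasmic reticulum.

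The autophosphorylated threonine lies in a stretch that is nearly the same protein in each gene but not the same DNA, and it is shown to let the genes be told apart. These 63 bases of coding sequence come from the GENCODE M21 transcripts (GRCm38), with the threonine codon in capitals, and are shown for Camk2b, Camk2d and Camk2g in transcripts Camk2b-202, Camk2d-221 and Camk2g-217, where it is residue 287, 287 and 285 of the reading frame.
Camk2b: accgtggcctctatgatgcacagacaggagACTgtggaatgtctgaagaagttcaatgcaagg
Camk2d: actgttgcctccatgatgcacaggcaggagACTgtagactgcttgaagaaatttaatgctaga
Camk2g: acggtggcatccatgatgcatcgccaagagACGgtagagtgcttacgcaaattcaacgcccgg

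Among the stretches shown, which leave out Camk2a, those of Camk2b and Camk2d were identical at 51 of 63 bases (81.0%). Camk2b and Camk2g were identical at 43 (68.3%) and Camk2d and Camk2g at 45 (71.4%). Translated, the same pairs were identical at 20, 20 and 19 of 21 residues. Over all annotated transcripts, no 66-base window of any of the 4 genes, 66 bases being the read length, occurred in another of the 4, so that no full-length, error-free read could be shared among them. In GRCm38, Camk2b (ENSMUSG00000057897.14) lies on chromosome 11 from 5969644 to 6066362 on the minus strand, Camk2d (ENSMUSG00000053819.16) on chromosome 3 from 126596302 to 126846326 on the plus strand, and Camk2g (ENSMUSG00000021820.18) on chromosome 14 from 20734875 to 20794088 on the minus strand. An annotated antisense gene within Camk2d, Gm15551, held 22 counts in the kept cells against 5832 of Camk2d. The counting ran with the default settings of zUMIs, and their use of strand is not given in the sources used here, so reads of this pair may not be told apart.

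The values are counts of unique molecular identifiers (UMIs), tags by which amplified copies of 1 captured RNA molecule are counted once. The kept cells held from 28827 to 1542996 counts each, with a median of 239581, and the failed cells a median of 16032. Each kept cell was put in a class by whichever of 5 myosin heavy chain genes (Myh8, Myh7, Myh4, Myh2, Myh1) had the most counts. This gave 117 fast 2X cells led by Myh1, 51 fast 2A cells led by Myh2, 2 slow cells led by Myh7 and 1 fast 2B cell led by Myh4. The median depth was 255726 counts in the fast 2X cells and 206510 in the fast 2A cells, and the median mitochondrial share was 5.01% and 6.96%. The myofiber markers Acta1, Ttn, Ckm, Neb and Tnnt3 together reached 116858 CPM, which scales counts to a common total per class, in the fast 2X and 126819 CPM in the fast 2A cells. The 763 barcodes were all distinct. Levels below are CPM of counts summed over the cells of a class, with exact Poisson 95% limits. Cells of 1 mouse are not replicates, so no p-value is given, and all limits cover counting error only.

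All 4 genes were found in nearly every kept myofiber, and Camk2b was the most abundant. Its summed level was 264 CPM (limits 260 to 269), followed by Camk2a at 200.6 CPM (197 to 205), Camk2g at 129 CPM (126 to 132) and Camk2d at 112 CPM (109 to 115). The limits of neighbors in this order did not overlap. Together the 4 genes made up 706 CPM, of which Camk2b held 37.4%, Camk2a 28.4%, Camk2g 18.3% and Camk2d 15.9%. Divided by the longest annotated transcript of each gene (4125, 4970, 3703 and 5524 bases in the same order), the order was the same, at 64.1, 40.4, 34.8 and 20.3 CPM per kilobase. A kept cell held a median of 170 Camk2 counts, so single-cell shares carry a wide counting error.

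Camk2b had at least 1 UMI in all 171 kept cells, Camk2g in 170, and Camk2a and Camk2d in 169 each. With every cell thinned to 28827 counts, the depth of the shallowest, 170 cells (99.4%) still had a UMI of Camk2b, 166 (97.1%) of Camk2a, 164 (95.9%) of Camk2g and 151 (88.3%) of Camk2d. The deepest of the cells without Camk2a held 54160 counts, where a count of 0 allows a level up to 55.4 CPM. No cell type without CaMKII was sorted, so the part of free RNA in these shares was not tested. For comparison, 21 markers of other cell types, treated below, were also found in many kept cells. The number of kept cells with a UMI ranged from 42 for Pdgfrb, at 1.69 CPM, to 151 for Pecam1, at 24.8 CPM.

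Camk2a, the alpha gene, was lower in fast 2A. Over the 117 fast 2X cells its lowest, median and highest levels were 0, 207 and 513 CPM, and over the 51 fast 2A cells 0, 129.7 and 363 CPM. The cells of the classes overlapped widely, but only 8 of 51 fast 2A cells lay above the fast 2X median. The summed level was 132 CPM (limits 125 to 139) in fast 2A and 223.8 CPM (219 to 228) in fast 2X, a log2 ratio of -0.76 (limits -0.84 to -0.69), or 1.70-fold lower in fast 2A. Of 8649 genes with at least 500 counts over both classes, 308 had a lower ratio. Camk2a (ENSMUSG00000024617.16) lies on chromosome 18 from 60925618 to 60988152 on the plus strand. Of its 6 protein-coding transcripts, 2 begin 37982 and 37936 bases into the gene and encode 189 and 200 residues, against 489 for Camk2a-201. Counts per gene do not separate such short products from the full-length kinase.

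Camk2g, the gamma gene, was also lower in fast 2A. Its lowest, median and highest levels were 0, 134 and 863 CPM over the fast 2X cells and 27.0, 97.3 and 302 CPM over the fast 2A cells. Here too the ranges overlapped, with 11 of 51 fast 2A cells above the fast 2X median. The summed level was 89.9 CPM (limits 84.6 to 95.4) in fast 2A and 142 CPM (138 to 146) in fast 2X, a log2 ratio of -0.66 (-0.76 to -0.57), or 1.58-fold lower, with 461 of the 8649 genes below it. The highest cell stood far from the others: a fast 2X cell on plate 710 held 34 Camk2g counts among 39394, or 863 CPM (limits 598 to 1206), against 376 CPM in the next. In that cell Camk2g was 73.9% of 46 Camk2 counts.

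Camk2b, the actin-binding beta gene, was slightly higher in fast 2A. Its lowest, median and highest levels were 24.1, 255 and 667 CPM over the fast 2X cells and 161, 290 and 614 CPM over the fast 2A cells, so the fast 2A cells lay inside the fast 2X range, and 32 of 51 were above the fast 2X median. The summed level was 299 CPM (limits 290 to 309) against 254 CPM (249 to 259), a log2 ratio of 0.24 (0.18 to 0.29).

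Camk2d, the delta gene, was also slightly higher in fast 2A. Its lowest, median and highest levels were 0, 87.7 and 292 CPM over the fast 2X cells and 9.85, 112 and 356 CPM over the fast 2A cells. The ranges overlapped almost fully, and 35 of 51 fast 2A cells lay above the fast 2X median. The summed level was 122 CPM (limits 116 to 129) against 107 CPM (104 to 110), a log2 ratio of 0.19 (0.11 to 0.28).

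**Figure D1:**
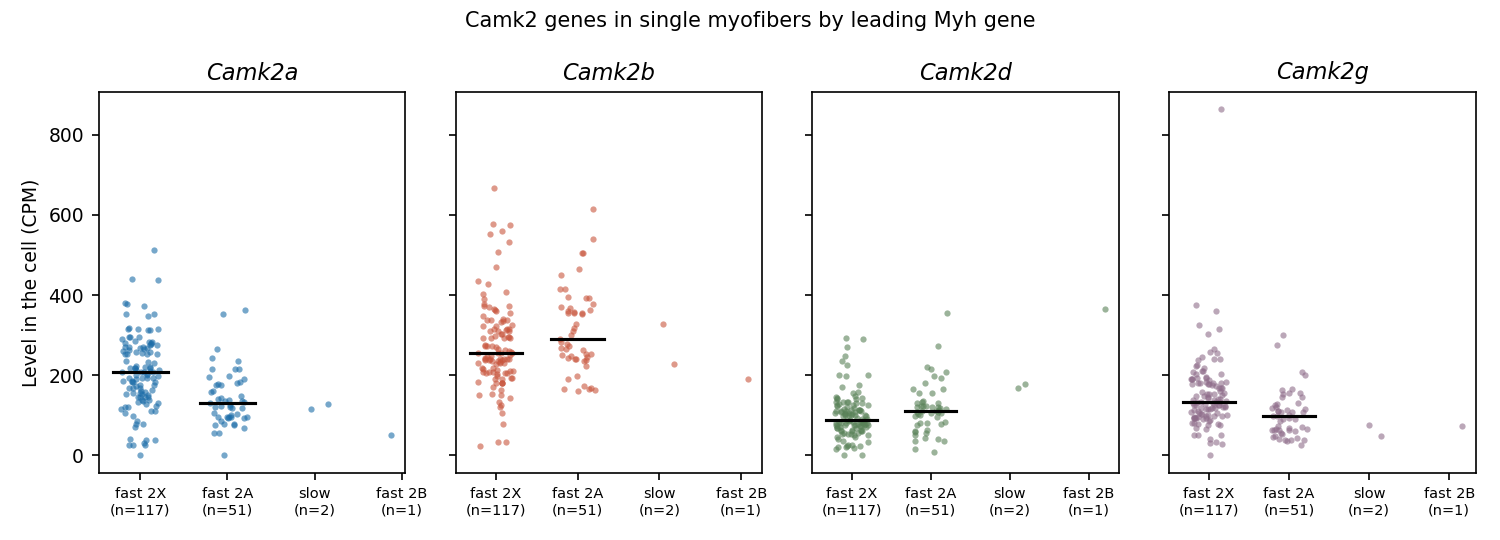
Level of each Camk2 gene in each kept cell, in CPM, by class; each point is 1 cell and the black line is the median of a class of more than 5 cells. The fast 2A median lies below the fast 2X median for Camk2a (129.7 against 207 CPM) and Camk2g (97.3 against 134 CPM) and above it for Camk2b and Camk2d, while the cells of both classes overlap in every panel.

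Thus 2 of the 4 genes were at least 1.5-fold lower in fast 2A, where 7.31% of the 8649 genes were, and 0 of 4 were at least 1.5-fold higher, where 2.57% of genes were. The median log2 ratio over the 8649 genes was -0.09, and scaling by trimmed mean of M values (TMM) moved all ratios up by 0.11. With TMM, Camk2a was at -0.65 and Camk2g at -0.55, so that Camk2g no longer passed 1.5-fold (0.58 on the log2 scale), while Camk2b was at 0.35 and Camk2d at 0.31. Over all genes TMM turned the split of 222 higher and 632 lower into 379 and 389. Weighting each cell equally, as a mean of cell CPM, gave -0.54 for Camk2a and -0.57 for Camk2g, both under 1.5-fold, and 0.19 for Camk2b and 0.25 for Camk2d. The order of Camk2a and Camk2g, and of Camk2b and Camk2d, thus depended on the weighting. The 4 genes summed to 643 CPM in fast 2A and 726 CPM in fast 2X, a log2 ratio of -0.18 (-0.21 to -0.14).

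Read as a mixture, the Camk2 counts of fast 2A cells were further toward the beta gene. Camk2b made up 46.5% of Camk2 counts in fast 2A and 34.9% in fast 2X, a difference of 11.6 percentage points (Newcombe 95% limits 10.4 to 12.9). Camk2a made up 20.5% and 30.8%, a difference of -10.3 points (-11.3 to -9.25). Camk2d held 19.0% and 14.7%, higher by 4.29 points (3.34 to 5.28), and Camk2g 14.0% and 19.6%, a difference of -5.60 points (-6.49 to -4.69). Camk2d and Camk2g therefore stood in opposite order in the 2 classes by counts. Per kilobase of the longest transcript they did not, with Camk2g at 24.3 and Camk2d at 22.1 CPM per kilobase in fast 2A and at 38.4 and 19.3 in fast 2X. Because UMIs count molecules, the order by counts is the main one here.

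The same was seen cell by cell. Among the 50 fast 2A cells with at least 20 Camk2 counts, Camk2b was the largest of the 4 in 45 and Camk2a in 3, and Camk2d and Camk2g led in 1 cell each. Among 115 fast 2X cells, Camk2b led in 75, Camk2a in 29, Camk2g in 7 and Camk2d in 3, with 1 tie. Camk2b thus led in 90.0% of these fast 2A cells and in 65.2% of these fast 2X cells. No limits are given, because cells of 1 mouse are not replicates.

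**Figure D2:**
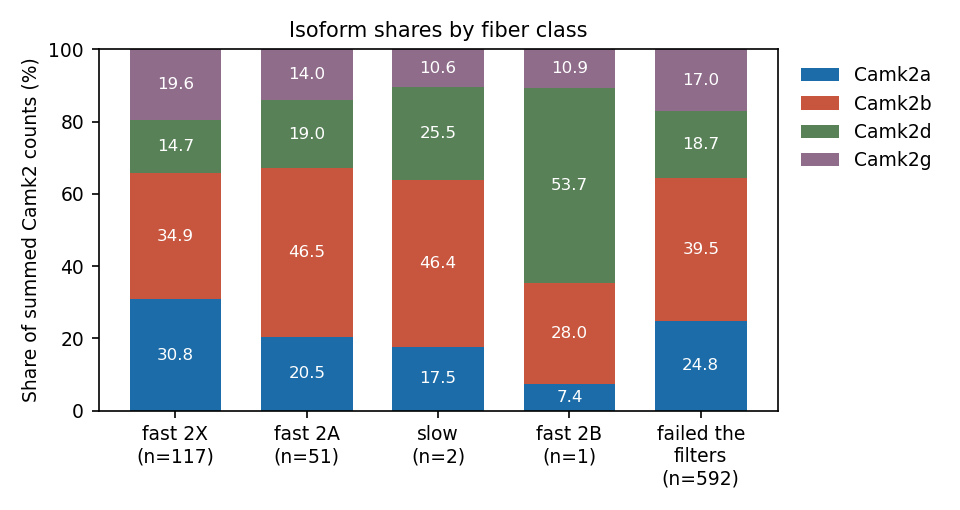
Share of each gene in the summed Camk2 counts (percent, stacked to 100) in each class and in the cells that failed the filters, with the number of cells under each bar. Camk2b is the largest part in fast 2X (34.9%), fast 2A (46.5%), slow and failed cells, and Camk2d is the largest part (53.7%) in the 1 fast 2B cell.

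The 2 slow cells, given singly, had Camk2a at 115 and 129 CPM, Camk2b at 328 and 229 CPM, Camk2d at 169 and 179 CPM and Camk2g at 75.2 and 49.7 CPM, the first of each pair being the deeper cell with 478806 counts and the second holding 100629. Myh7 was 76.1% and 77.3% of their myosin counts. Both lay below the fast 2X median for Camk2a and Camk2g and above the fast 2A median for Camk2d. The 1 fast 2B cell had the highest Camk2d level of all 171 cells, at 366 CPM (limits 296 to 448, from 94 counts in a depth of 257020). The next was a fast 2A cell at 356 CPM, from 26 counts. In the fast 2B cell Camk2d made up 53.7% of Camk2 counts (46.0 to 61.3), Camk2b was at 191 CPM, Camk2g at 73.9 CPM, and Camk2a at 50.6 CPM, rank 162 of 171. With 2 cells and 1 cell these values describe the cells and not the classes.

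Because many myofibers held both Myh1 and Myh2, the genes were also followed along the share of Myh2 in the sum of both, in 5 bins of 20 percentage points over the fast 2X and fast 2A cells. Camk2a was lower in each successive bin, at 249.6, 197, 146, 136 and 117 CPM. Camk2g stayed near 142 and 143 CPM in the first 2 bins and was then 118, 96.1 and 79.2 CPM. Its medians over cells were 153, 126, 140, 108 and 69.6 CPM, so the level start was seen in summed counts only. Camk2b was 243, 264, 301, 311 and 277 CPM, highest in the bin from 60 to 80%, and Camk2d was 109, 105, 97.8, 116 and 144 CPM, highest in the last. In the first bin Camk2a and Camk2b were level within their limits (243 to 256 against 237 to 250 CPM), and from the second on Camk2b was higher. The bins from 40 to 60% and from 80 to 100% held 16 cells each, and median depth was 330043 counts in the first bin against 153911 to 228026 in the others. The part of depth in these values was not tested.

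**Figure D3:**
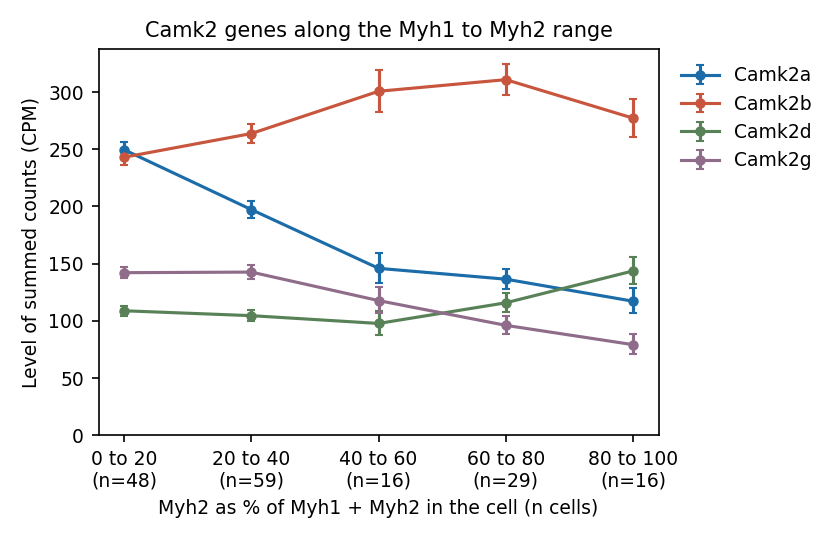
Level of each Camk2 gene (CPM of summed counts, with 95% counting limits as bars) in 5 bins of the Myh2 share of Myh1 plus Myh2, from cells nearly all Myh1 (left) to nearly all Myh2 (right). Camk2a goes from 249.6 to 117 CPM and Camk2g from 142 to 79.2 CPM, while Camk2b peaks at 311 CPM in the fourth bin.

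The ratios were also taken within each plate, where a plate stands for 1 library index. Camk2a was lower in fast 2A on 8 of 8 plates, from -1.01 to -0.48, and its interval excluded 0 on all 8. Camk2g was lower on 8 of 8, from -0.98 to -0.22, with an interval holding 0 on plate 709. Camk2b was higher on 7 of 8 plates, from -0.05 to 0.62, and Camk2d on 6 of 8, from -0.18 to 0.80, with intervals holding 0 on 4 and 3 plates. By lane, Camk2g was at -0.79 on lane 1 and -0.49 on lane 2, and Camk2d was at 0.27 on lane 1 and at 0.12 on lane 2, where its limits, -0.01 to 0.25, held 0. With each plate left out in turn, Camk2a ranged from -0.80 to -0.72, Camk2g from -0.74 to -0.59, Camk2b from 0.19 to 0.27 and Camk2d from 0.16 to 0.25. The plates hold cells of the same mouse, from 2 to 10 fast 2A cells and from 6 to 21 fast 2X cells each. These intervals cover counting error only. Within a class the variance between cells was from 4.65 to 8.90 times that of counting, so they are narrower than the spread of cells would give.

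**Figure D4:**
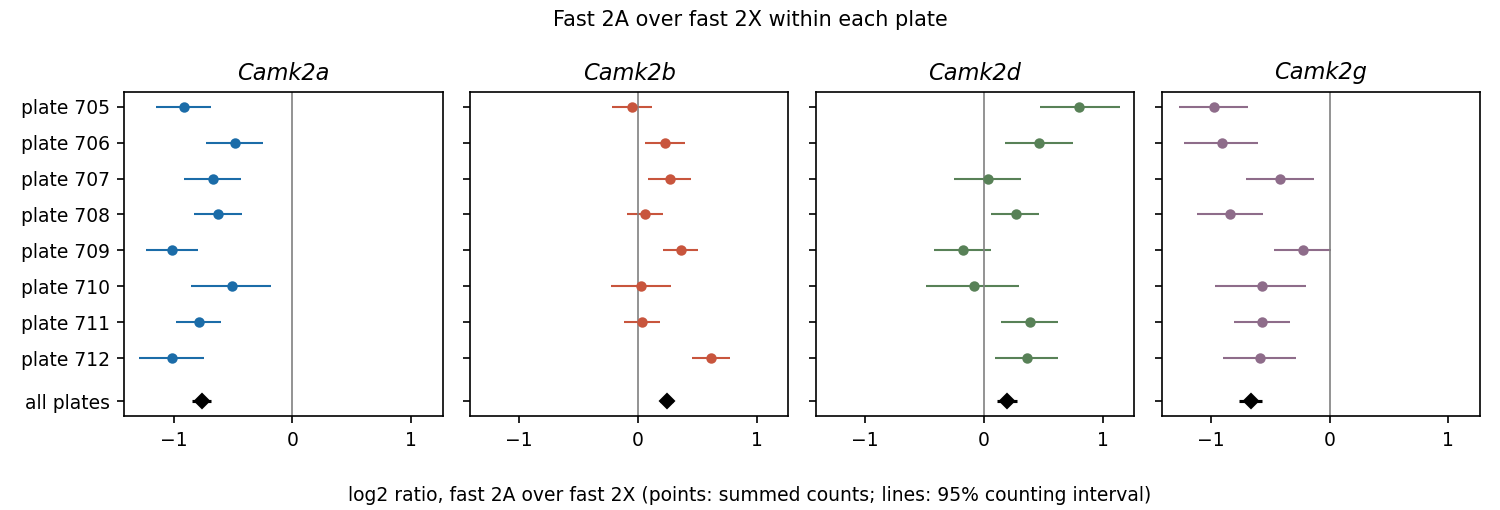
Log2 ratio of each Camk2 gene, fast 2A over fast 2X, within each of the 8 plates (colored points, 95% counting intervals) and over all plates (black diamonds). All 8 points lie left of 0 for Camk2a (-1.01 to -0.48) and Camk2g (-0.98 to -0.22), whereas those of Camk2b and Camk2d lie on both sides.

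The cells that failed the filters gave other ratios. Camk2a was at 68.6 CPM in these 592 cells, Camk2b at 109 CPM, Camk2d at 51.8 CPM and Camk2g at 47.2 CPM. With mitochondrial counts left out of the totals the levels were 144, 230, 109 and 99.4 CPM, against 213, 281, 119 and 137 CPM in the kept cells. The shares in failed cells were 24.8%, 39.5%, 18.7% and 17.0%, the same leading gene as in the kept cells. The failed cells were 502 whole myofibers and 90 fragments, while the kept cells held 3 fragments. Camk2a made up 23.3% (limits 21.9 to 24.8) in failed whole myofibers and 29.4% (26.7 to 32.3) in failed fragments. Camk2b led in both, at 39.7% and 38.6%. Among failed cells with at least 20 myosin counts, 66 were led by Myh2 and 420 by Myh1, with median depths of 20067.5 and 19565 counts. Between these, Camk2a had a log2 ratio of -0.10 (limits -0.38 to 0.17) and Camk2g of -0.14 (-0.48 to 0.19), and neither interval excluded 0. Camk2b was at 0.59 (0.41 to 0.77), higher as in the kept cells, and Camk2d at -0.36 (-0.70 to -0.03), in the opposite direction. On the CPM scale the lower Camk2a and Camk2g of fast 2A was therefore not seen in the failed cells. As shares of Camk2 counts, Camk2a was 20.6% in the cells led by Myh2 and 24.6% in those led by Myh1, a difference of -3.99 points (limits -7.34 to -0.34), and Camk2g 14.0% and 17.2%, a difference of -3.22 points (-6.05 to -0.02). Camk2b was 51.5% and 38.2%, higher by 13.2 points (8.97 to 17.5). These shares differed in the same direction as in the kept cells, while that of Camk2d differed in the opposite one (-6.02 points, -8.88 to -2.78). The part of depth, RNA loss or class assignment in this was not tested.

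Markers of endothelial, smooth muscle, fibroblast, Schwann, satellite and immune cells, 21 genes in all, were present at low level in both classes, with none at 0. Their summed level was 199 CPM in fast 2X and 161 CPM in fast 2A, and single cells ranged from 0 to 13708 CPM and from 43.9 to 3582 CPM, with medians of 131 and 137 CPM. The smooth muscle and pericyte markers differed between the classes like Camk2a and Camk2g, with 24.7 CPM in fast 2A and 45.7 CPM in fast 2X. Of their 3 genes with enough counts, 2 were at least 1.5-fold lower in fast 2A, also with TMM: Acta2, smooth muscle actin, at a log2 ratio of -1.28 and Myh11, smooth muscle myosin, at -1.25. The summed level of the 4 markers of this list ranged from 0 to 517 CPM over fast 2A cells and from 0 to 9265 CPM over fast 2X cells, with medians of 21.8 and 20.7 CPM. Without the 26 fast 2X and 10 fast 2A cells in which all 21 markers together exceeded 200 CPM, the smooth muscle markers were at 21.8 CPM in fast 2A and 20.4 CPM in fast 2X. The log2 ratios were then -0.84 for Camk2a, -0.68 for Camk2g, 0.19 for Camk2b and 0.23 for Camk2d, so the differences were about as large without these cells.

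Within a class the 4 genes varied from cell to cell by more than counting error. Beyond counting error, the coefficient of variation over fast 2X cells was 28.1% for Camk2a, 24.1% for Camk2b, 28.8% for Camk2d and 25.3% for Camk2g, and the median over 7584 genes was 43.2%. Over fast 2A cells it was 31.9%, 26.8%, 27.1% and 36.8%, with a median of 36.5% over 3024 genes. The genes followed each other weakly. Over the 117 fast 2X cells the Spearman rho of cell CPM was 0.27 for Camk2b with Camk2g, 0.19 for Camk2a with Camk2g, -0.21 for Camk2b with Camk2d and between -0.09 and 0.07 for the other pairs. These cells share 1 mouse and a common total per cell, so the values are descriptions. The levels also varied with depth and the mitochondrial share, with depth in no common direction. Camk2a had a rho with depth of 0.25 in fast 2X and -0.21 in fast 2A cells, and Camk2b of -0.14 and -0.17. In the same order Camk2d had 0.28 and 0.33, and Camk2g 0.005 and -0.30. With the mitochondrial share Camk2a had a rho of -0.36 in fast 2X cells. The strongest was Camk2b with the mitochondrial share in fast 2A cells, at -0.54.

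For each gene, the 3 genes of 7589 with the most similar pattern over the 117 fast 2X cells were found by Spearman rho. For Camk2a they were Smtnl2 (0.57), Ampd1 (0.57), the muscle AMP deaminase, and Phka1 (0.56), the muscle regulatory subunit of phosphorylase kinase. Over the 51 fast 2A cells the same pairs gave 0.13, 0.24 and 0.31. For Camk2b they were Eno3 (0.57), the muscle enolase, Acta1 (0.53), skeletal actin, and Slc25a4 (0.52), the mitochondrial ATP/ADP carrier, and in fast 2A cells 0.44, 0.53 and 0.44. All 3 are abundant genes, from 4083 to 28791 CPM. For Camk2g they were Asb2 (0.48), Lsp1 (0.48) and Chrne (0.46), the epsilon subunit of the acetylcholine receptor, with 0.30, 0.17 and 0.34 in fast 2A. For Camk2d the leading genes, Tent4b (0.46), Tcp11l2 (0.45) and Abca3 (0.43), had 0.01, -0.06 and -0.09 in fast 2A cells, so this likeness was not seen there. These genes are scarce, at 26.4, 21.95 and 22.1 CPM in fast 2X cells. The part of counting error in these rho values was not tested.

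Around the kinase, 37 genes of the pathway were counted and all were measured. Of the 27 with at least 500 counts over both classes, 2 were at least 1.5-fold higher in fast 2A, 5 were at least 1.5-fold lower and 20 lay within, with a median log2 ratio of -0.12 against -0.09 over all genes. Over all genes compared, 2.57% were at least 1.5-fold higher and 7.31% lower. With TMM, 2 of the 27 were higher and 3 lower. Of genes for calmodulin, which carries Ca2+ to the kinase, Calm3 was at 105 CPM in fast 2A and 162 CPM in fast 2X (log2 ratio -0.63, limits -0.72 to -0.54), while Calm2 was within 1.5-fold at 66.8 and 55.1 CPM. With TMM, Calm3 was at -0.52 and no longer passed 1.5-fold.

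Of the inhibitors and scaffold partners, Actn2, the sarcomeric alpha-actinin that can bind CaMKII, was at 2583 CPM in fast 2A and 1548 CPM in fast 2X (0.74, limits 0.72 to 0.76). Actn1, a non-muscle alpha-actinin, was low in both at 9.57 and 14.7 CPM (-0.61, limits -0.92 to -0.32), and -0.50 with TMM. The CaMKII inhibitor genes were near the limit of detection. Camk2n1 was at 2.27 and 2.40 CPM, and Camk2n2 at 1.18 and 4.36 CPM, from 14 and 171 counts, too few for the count minimum.

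Among other kinases regulated by calmodulin, Camk4 was at 6.63 CPM in fast 2A and 11.6 CPM in fast 2X (-0.80, limits -1.16 to -0.45). Camk1d was the most abundant gene of that list, at 9788 and 10084 CPM, far above any Camk2 gene, and whether these counts come from its kinase transcript was not tested. The 7 phosphatase genes, among them Ppm1f, the CaMKII phosphatase, lay within 1.5-fold, as did most of the 8649 genes (all but 2.57% higher and 7.31% lower). Ppp1cb was the most abundant of them, at 162 and 170 CPM.

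Of 12 targets in muscle, 1 was at least 1.5-fold higher (2.57% of all genes), 2 were lower (7.31%) and 9 lay within. The most abundant, the Ca2+ release channel Ryr1, was at 4415 CPM in fast 2A and 4747 CPM in fast 2X. The Ca2+ pumps of the sarcoplasmic reticulum differed in opposite directions. Atp2a2, the slow and cardiac pump, was at 46.3 and 20.1 CPM (1.20, limits 1.04 to 1.36), and Atp2a1, the fast pump, at 1998 and 3301 CPM (-0.72, limits -0.74 to -0.70). Phka1, whose enzyme contains calmodulin as a subunit, was at 118 and 256 CPM (-1.12, limits -1.20 to -1.04), the lowest ratio of the list. Like most genes, the transcription factors and repressors of this list lay within 1.5-fold, with Mef2c at 1791 and 1626 CPM, Mef2d at 128 and 97.0 CPM and Hdac4 at 174 and 203 CPM.

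**Figure D5:**
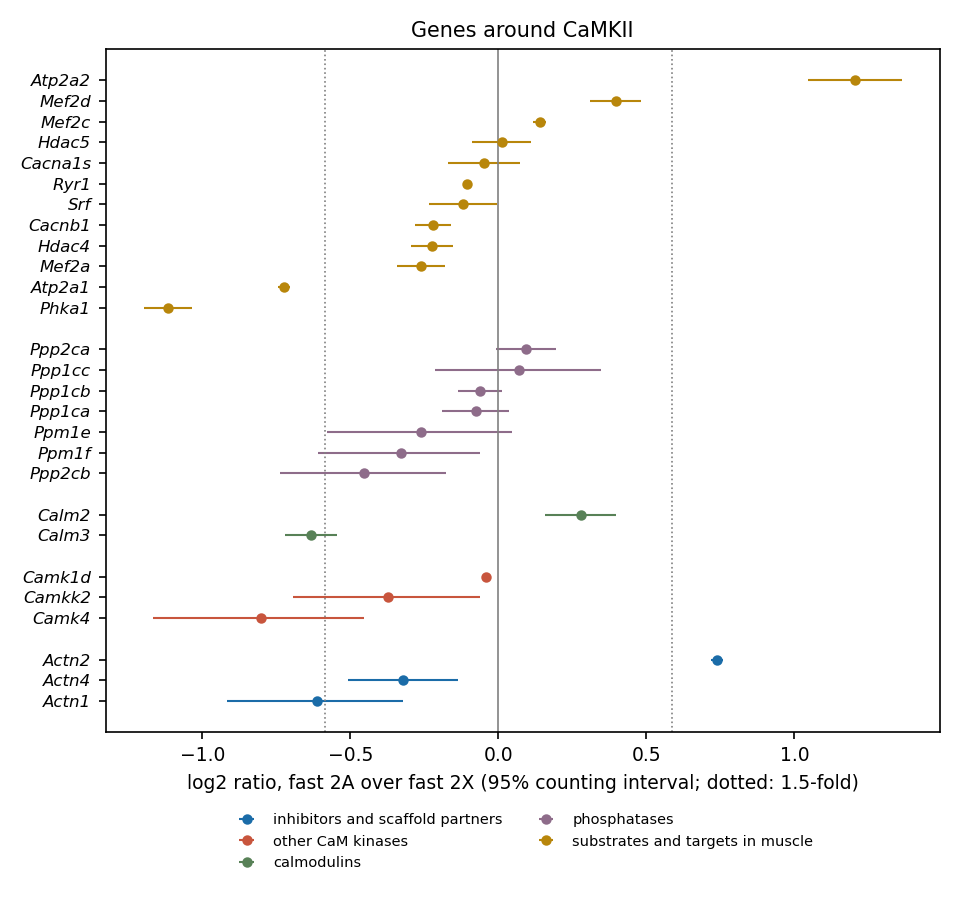
Log2 ratio, fast 2A over fast 2X, of the 27 pathway genes with at least 500 counts, colored by list, with 95% counting intervals and dotted lines at 1.5-fold. Atp2a2 (1.20) and Actn2 (0.74) lie beyond the right line and Phka1, Camk4, Atp2a1, Calm3 and Actn1 beyond the left, and all 7 phosphatases lie between the lines.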

How the data were processed

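Single FDB myofibers and fragments of 1 mouse were profiled by mcSCRB-seq, and both lanes form 1 group. The deposited values are whole UMI counts per gene and cell, not estimated counts with fractions. The authors describe counting with zUMIs at its default settings. The submitters' processing notes name STAR 2.5.4b, featureCounts, Cell Ranger 3.1.0 and GRCm38 (mm10), and the paper does not mention Cell Ranger. Whether the table includes intronic reads is not given in the sources used here. No value column was left out (0). From these counts, cells were filtered and classed as described above, counts were summed per class, and CPM, ratios (exact conditional binomial limits) and shares were computed with Python 3.11.15, numpy 2.4.6, pandas 2.3.3 and scipy 1.17.1. TMM factors came from edgeR 4.0.16 in R 4.3.3, and no model was fitted. No doublet caller was run, as cells were sorted singly into wells. Genes needed 500 counts over both classes, and 1.5-fold marks a difference. Pathway genes were named where past 1.5-fold or most abundant of their list, and Calm2, Acta2, Myh11, Camk2n1, Camk2n2, Ppm1f, Mef2c, Mef2d and Hdac4 were added after their values were seen. 1 gene was left out of the pathway lists and all their counts, and its result is not reported here. The members and lists were chosen with earlier results of these data known. Scripts were tested on simulated data.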

Additional observations from a re-analysis of the deposited data

How the results depend on the processing

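With 1 mouse, no alternative measures the spread between animals, and depth limits the values of single cells more than those of classes. Of 102 values under alternatives, 71 moved by no more than counting error (counts of genes: by under 1.5 times) and 31 moved further. Of the 71, 32 came from leaving out 1 plate, which keeps most of the cells. The Camk2d ratio, which is under 1.5-fold, changed sign in the failed cells. The Camk2a log2 ratio was -0.65 with TMM, -0.54 as a mean and -0.68 as a median over cells, -0.68 on lane 1 and -0.10 in failed cells, the last chosen after seeing the data like the omission of plates and of marker-rich cells and the restriction to whole myofibers. Camk2b was 0.35 with TMM and 0.59 in failed cells. Camk2d was 0.31 with TMM, 0.35 as a median and -0.36 in failed cells. Camk2g was -0.55 with TMM, -0.47 as a median, -0.79 on lane 1, -0.49 on lane 2 and -0.14 in failed cells. Leaving out 1 plate at a time gave -0.80 to -0.72 for Camk2a, 0.19 to 0.27 for Camk2b, 0.16 to 0.25 for Camk2d and -0.74 to -0.59 for Camk2g. As a mean over cells, per length and thinned to 1 depth, the share of Camk2a was 25.9%, 25.3% and 25.0%, and of Camk2b 39.8%, 40.2% and 41.5%; per length and thinned, Camk2d was 12.7% and 14.2%, and Camk2g 21.8% and 19.3%. Genes at least 1.5-fold higher in fast 2A numbered 647 with a minimum of 100 counts, 4034 with no minimum and 379 with TMM, and those lower 2219, 6397 and 389. The cause of these shifts was not tested. Both classes were present on each plate, and the ratios within plates are those given above.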
